A study of Populus trichocarpa with 45 samples.

Results

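Leaf transcripts were described for 100 genes whose level was graded across 3 wild black cottonwood trees, with tree 14 between tree 4 and tree 13. The genes were chosen from their own values. The mean of log2(TPM + 1) in tree 14 had to lie between the means of tree 4 and tree 13, and both steps had to be at least 0.3 in the same direction. TPM is the share of a gene among all transcripts of a library, scaled to the same total in every library. Of 34700 annotated genes, 686 met this rule, and the 100 with the largest smaller step were taken. They comprised 40 genes called rising here (tree 4 above tree 14 above tree 13) and 60 called falling (tree 4 below tree 14 below tree 13). Because these contrasts chose the genes, the differences between trees are given as a description, without a test.

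The libraries were strand-specific mRNA-seq of leaf tissue from 5 branches of each tree, with 3 libraries per branch, 45 in all, and no sample was treated. Trees 13 and 14 are stems that sprouted from the same stump, tree 14 first, while tree 4 is a separate tree of the same stand, although the sample labels speak of a single wild tree. The study describes the 3 libraries of a branch as biological replicates in its results and as technical replicates in its methods, and the labels do not settle this, so p-values between branches measure only the spread between these libraries, which may be technical. Branches 13.4 and 14.1 were set aside by the study because their ages could not be estimated. Its methods call them too damaged for this, and its results call the excluded branches epicormic. The reference genome was assembled from branch 14.5, so reads of tree 4 were aligned to the genome of another individual. The effect of this was not tested.

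A whole leaf holds epidermis, mesophyll, guard cells and veins, and the level of a transcript in leaf RNA sums what all of these cells make and degrade. Leaves of a single crown grow under different light and water supply and differ in age, and many leaf transcripts are known to respond to such conditions. Stems sprouted from the same stump share their genotype apart from somatic mutations, whereas separate trees can also differ in inherited regulatory variants. The identifiers of this genome carry no gene names here and matched no entry of the annotation table at hand, so roles of the genes cannot be given and leaf identity was not checked against marker genes.

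Sequencing depth, recovered from the step size of the FPKM values, was itself graded over the trees. In megafragments (M), it spanned 16.1 to 34.4 M in tree 4 (median 31.3), 11.9 to 29.1 M in tree 14 (median 23.7) and 18.9 to 25.8 M in tree 13 (median 21.0). A transcript of 1 kb at 1 TPM corresponded to a median of 18.2 fragments. A set of 198 co-varying genes took 1.03 to 50.6% of the TPM of a library (median 5.58%), most in replicate 3 of branch 14.1. Therefore TPM was rescaled to a median gene, and all levels below are scaled TPM unless stated. No 2 libraries held identical values.

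The rising genes were a median of 4.76-fold higher in tree 4 than in tree 13, 2.02-fold higher in tree 4 than in tree 14 and 2.36-fold higher in tree 14 than in tree 13. The falling genes had median ratios of 0.226 for tree 4 over tree 13, 0.395 for tree 4 over tree 14 and 0.598 for tree 14 over tree 13. The step between tree 4 and tree 14 was the larger in 24 of 40 rising and 48 of 60 falling genes. The smaller step spanned 0.63 to 1.87 (median 0.84) on the log2(TPM + 1) scale in rising genes and 0.64 to 1.32 (median 0.77) in falling genes. At the edge of the selection, PtStettler14.09G033400 was the last gene taken with a smaller step of 0.634, and PtStettler14.04G124000 the first left out with 0.631. Membership of the 100 depended on the processing. With scaled TPM all 100 genes still met the rule, but only 71 were among the 100 with the largest smaller step. That number was 73 with quantile normalization and 72 with a pseudocount of 0.1 in place of 1. It was 62 in libraries of 16 to 26 M fragments, a subset chosen after seeing the data. In bulk leaf RNA, fewer cells of a type and less RNA per cell cannot be told apart.

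Branch means of tree 4 all lay above those of tree 13 in 37 of 40 rising genes (12.3% of all 23816 tested genes) and all lay below them in 60 of 60 falling genes (12.7%). Tree 4 lay wholly above tree 14 in 25 rising genes (7.39%) and wholly below it in 49 falling genes (8.54%). Tree 14 lay wholly above tree 13 in 35 rising genes (4.87%) and wholly below it in 48 falling genes (3.79%). Nothing is read from these shares, since the rule used the same contrasts. Single libraries did not overlap between tree 4 and tree 13 in 95 genes (5.89% of all tested genes), between tree 4 and tree 14 in 64 (2.85%), and between tree 14 and tree 13 in 45 (0.932%), from which again nothing is read. Depth moved with the grading, and its part in the result was not tested.

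**Figure D1:**
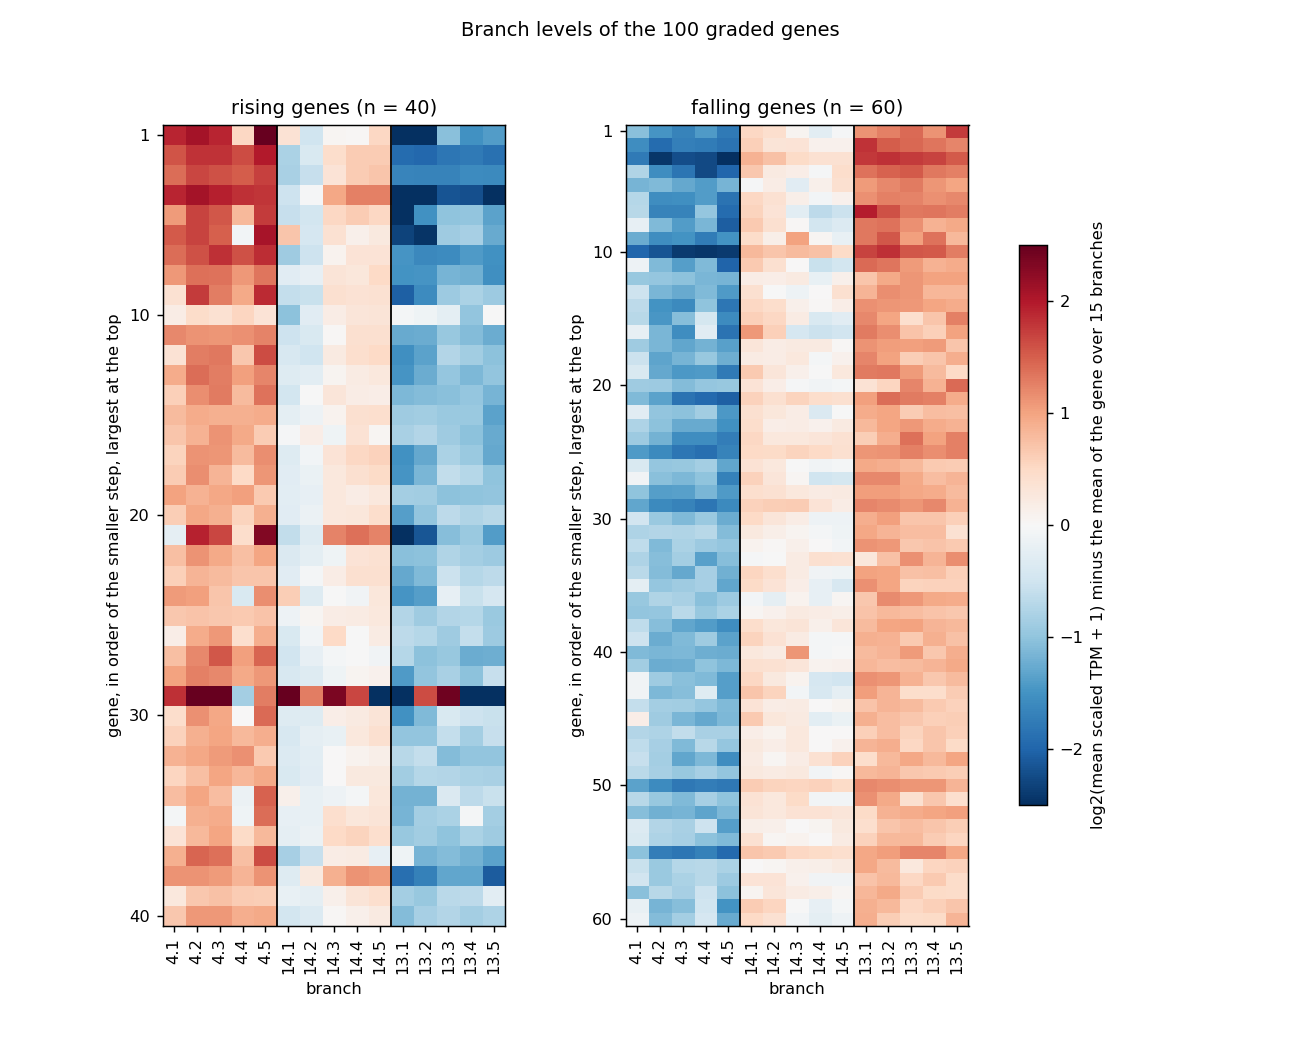
Branch levels of the 40 rising genes (left) and 60 falling genes (right), 1 row per gene in order of the smaller step and 1 column per branch, trees 4, 14 and 13 from left to right. Colour is log2(mean scaled TPM + 1) minus the mean of the gene over 15 branches, with values beyond the colour bar at its end colours. Tree 14 columns are intermediate by construction, and within tree 14, 34 of the 40 rising genes are lower in branches 14.1 and 14.2 than in the other 3 branches. The row that alternates between the darkest colours is PtStettler14.07G059900, which was at 0 in many libraries.

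Among rising genes, PtStettler14.08G123100 (chromosome 8, 8979126 to 8982796, minus strand) had the widest ratio, 41.2-fold between tree 4 and tree 13. It measured 13.6 to 19.5 (median 16.02) in the 15 libraries of tree 4, 1.88 to 7.25 (median 6.22) in those of tree 14, and 0.261 to 0.596 (median 0.381) in those of tree 13. No library overlapped between trees. In tree 14, branch means were 1.92 in branch 14.1 and 2.90 in branch 14.2, against 5.84 in 14.3, 6.84 in 14.4 and 6.92 in 14.5. All branches of tree 14 were thus closer in level to tree 13 than to tree 4, branch 14.1 the closest. The spread over branches, 4.88 ± 2.33 (SD, n = 5 branches), was widest in the intermediate tree.

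PtStettler14.14G022400 (chromosome 14, 1873493 to 1876369, plus strand) repeated this layout. Its libraries measured 18.6 to 26.1 (median 22.0) in tree 4, 3.24 to 12.5 (median 8.72) in tree 14 and 0.926 to 2.07 (median 1.42) in tree 13. Tree 13 was nearly flat, at 1.49 ± 0.0762 over its branches (SD, n = 5), while tree 14 stepped between 3.39 in branch 14.1 and 11.4 in branch 14.5. PtStettler14.15G121100 (chromosome 15, 14588756 to 14590771, plus strand) measured 71.2 to 104 (median 87.5) in tree 4, 13.8 to 57.4 (median 45.02) in tree 14 and 1.96 to 4.44 (median 3.33) in tree 13. Its low libraries in tree 14 were again those of branches 14.1 and 14.2, with means of 15.4 and 22.0 against 44.8 to 54.8 in the other 3 branches. PtStettler14.02G116000 (chromosome 2, 9414780 to 9417811, plus strand) had branch means of 11.6 to 16.3 in tree 4, 1.59 to 5.10 in tree 14 and 0.585 to 0.796 in tree 13, and PtStettler14.06G045900 (chromosome 6, 3821119 to 3821835, plus strand) had 8.56 to 10.9 in tree 4, 2.75 to 5.37 in tree 14 and 0.572 to 1.03 in tree 13. For both, the lowest branch of tree 14 was 14.1.

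The gene with the largest smaller step of all, PtStettler14.05G080600 (chromosome 5, 6429950 to 6430436, plus strand), was laid out differently. Its libraries ranged over 88.6 to 531 (median 301) in tree 4, 48.0 to 134 (median 81.0) in tree 14 and 7.22 to 48.6 (median 19.8) in tree 13. The library ranges overlapped between neighbouring trees, with averages of 109 in both branch 4.4 and branch 14.5, although the branch means themselves kept the order of the trees. PtStettler14.02G052200 (chromosome 2, 3726452 to 3727369, minus strand) was alike in tree 4, with 131 in branch 4.4 against 390 to 580 in the other branches, and its highest branch of tree 14 was 14.1 with 225. All branches of tree 14 except 14.2, at 103, lay above branch 4.4 in this gene, with 152 in 14.4 to 225 in 14.1. Its intermediate tree mean thus did not come with intermediate branches throughout. PtStettler14.15G109300 (chromosome 15, 13768715 to 13769681, minus strand) had branch means of 197 to 379 in tree 4, 74.5 to 174 in tree 14 and 17.3 to 56.3 in tree 13. PtStettler14.14G137000 (chromosome 14, 11374981 to 11377775, plus strand) had 12.1 to 35.4 in tree 4, 5.63 to 12.3 in tree 14 and 1.44 to 4.79 in tree 13, so that branch 4.1 lay within the range of tree 14.

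**Figure D2:**
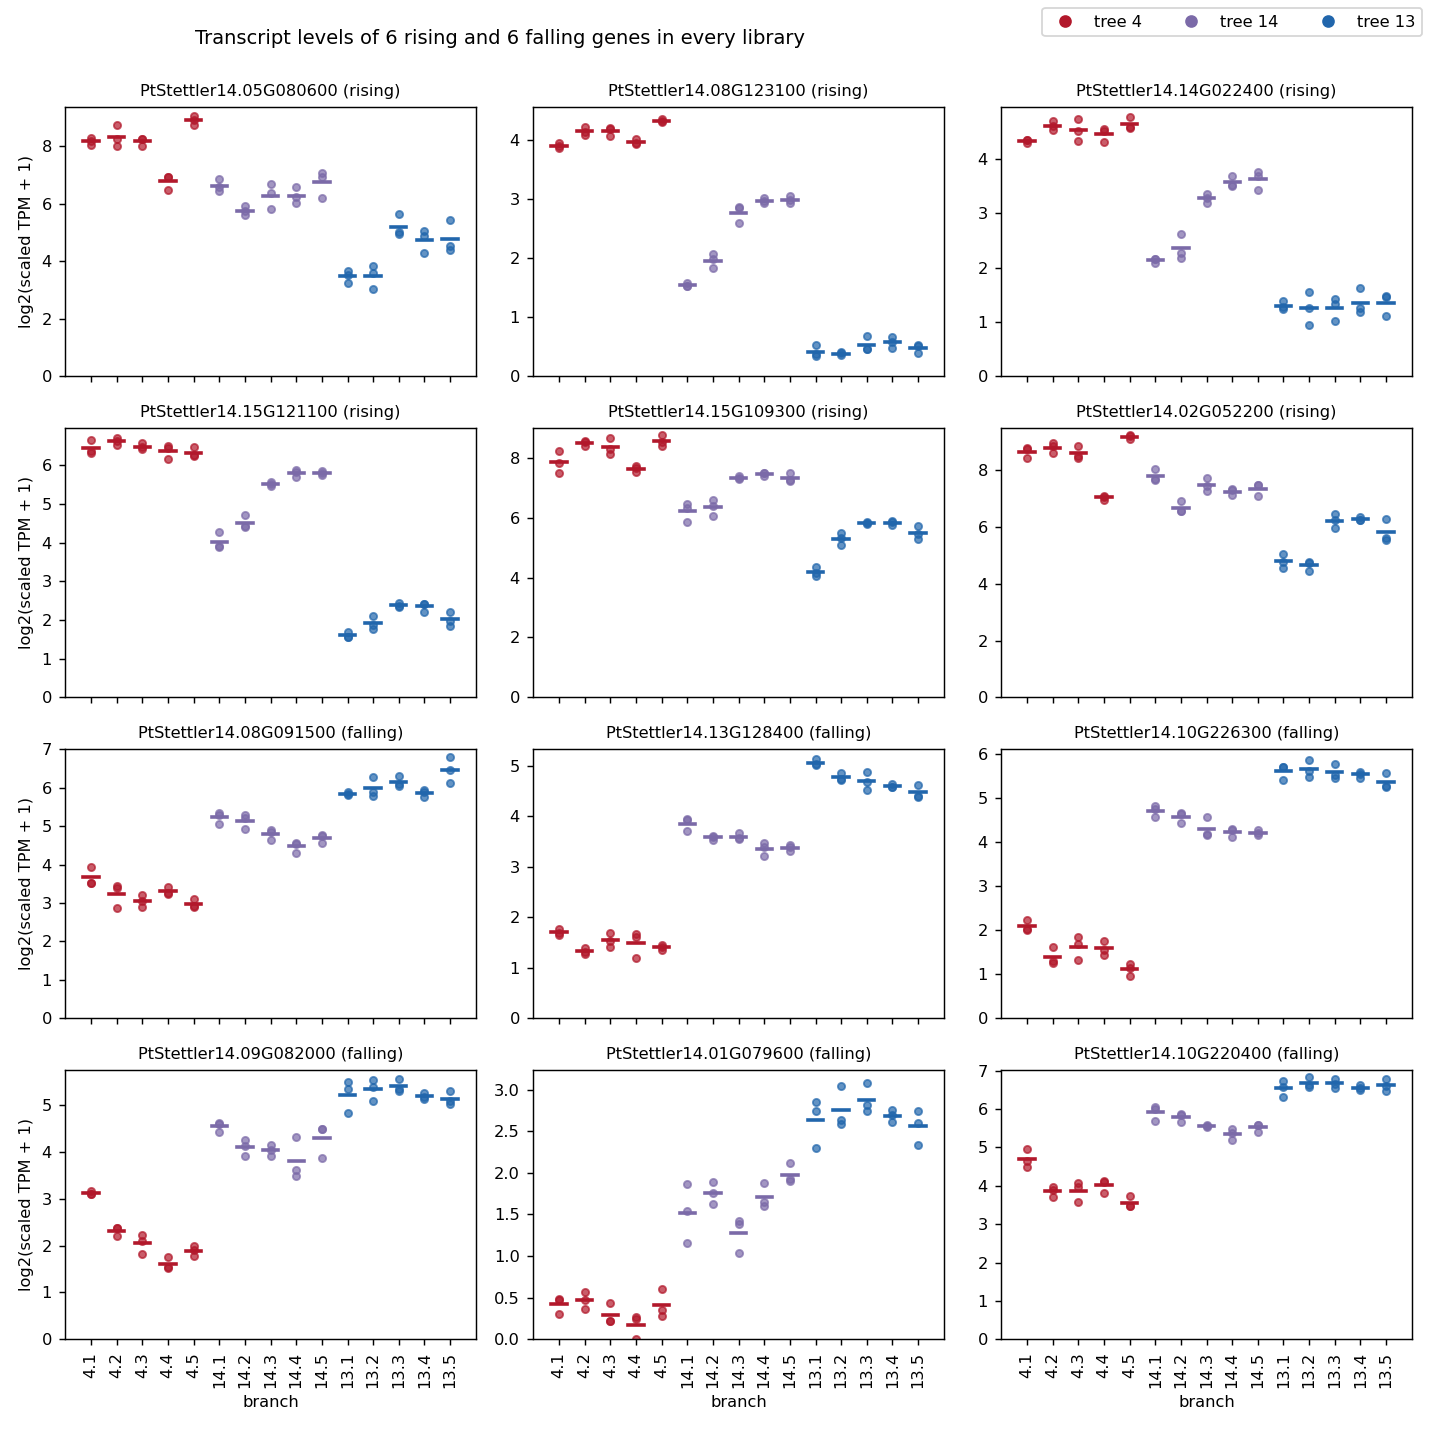
Level of the 6 rising and 6 falling genes with the largest smaller step in every library, as log2(scaled TPM + 1), by branch in the order of trees 4, 14 and 13. Points are libraries, bars are means of 3 libraries. For PtStettler14.08G123100, PtStettler14.14G022400 and PtStettler14.15G121100 the points of branches 14.1 and 14.2 lie below those of the other branches of tree 14.

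Among falling genes, PtStettler14.08G091500 (chromosome 8, 6469692 to 6470514, plus strand) had the largest smaller step, with branch means of 6.84 to 11.8 in tree 4, 21.3 to 36.8 in tree 14 and 56.6 to 88.7 in tree 13. PtStettler14.13G128400 (chromosome 13, 15260065 to 15261708, minus strand) measured 1.28 to 2.39 (median 1.73) in the libraries of tree 4, 8.26 to 14.3 (median 10.7) in tree 14 and 19.9 to 34.0 (median 24.4) in tree 13. PtStettler14.10G226300 (chromosome 10, 22446439 to 22447665, plus strand) measured 0.955 to 3.67 (median 1.92) in tree 4, 16.2 to 27.3 (median 18.8) in tree 14 and 37.0 to 57.5 (median 46.1) in tree 13. For these 3 genes no library overlapped between any pair of trees, and the highest branch of tree 4 was 4.1 and that of tree 14 was 14.1. PtStettler14.14G088600 (chromosome 14, 7136149 to 7143987, plus strand) measured 3.36 to 5.67 (median 3.90) in tree 4, 31.7 to 49.1 (median 39.1) in tree 14 and 57.4 to 91.8 (median 71.2) in tree 13. PtStettler14.13G005700 (chromosome 13, 385617 to 387325, minus strand) had branch means of 0.0643 to 0.515 in tree 4, 2.14 to 6.14 in tree 14 and 5.23 to 9.44 in tree 13. Branch 14.3 thus exceeded the lowest branch of tree 13, which rested on replicate 3 of that branch at 9.68.

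PtStettler14.01G079600 (chromosome 1, 7137163 to 7138185, minus strand) was among the lowest of the named falling genes, with 0 to 0.519 (median 0.275) in tree 4, 1.05 to 3.33 (median 2.13) in tree 14 and 3.93 to 7.45 (median 5.66) in tree 13. A value of 0 was listed for replicate 2 of branch 4.4. PtStettler14.09G082000 (chromosome 9, 8488393 to 8490286, minus strand) measured 1.89 to 8.01 (median 3.30) in tree 4, 10.3 to 23.7 (median 16.8) in tree 14 and 27.6 to 45.8 (median 38.3) in tree 13. PtStettler14.10G220400 (chromosome 10, 22107880 to 22108776, plus strand) had branch means of 10.9 to 25.3 in tree 4, 39.8 to 59.9 in tree 14 and 93.0 to 102 in tree 13. Both were highest within tree 4 in branch 4.1. PtStettler14.08G089200 (chromosome 8, 6248139 to 6250978, minus strand) measured 2.58 to 8.49 (median 4.06) in tree 4, 8.21 to 21.7 (median 12.2) in tree 14 and 31.9 to 62.4 (median 38.5) in tree 13, with branches 4.1, 14.1 and 13.1 the highest of their trees. In tree 4, 8 of the 60 falling genes averaged below 1 TPM, and in tree 13, 8 of the 40 rising genes did.

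An abundant group of falling genes lay together on chromosome 8. PtStettler14.08G143700 (10702562 to 10702931, minus strand) averaged 404 ± 197 in tree 4, 911 ± 301 in tree 14 and 1845 ± 277 in tree 13 (SD, n = 5 branches each). Its branch means were 200 to 729 in tree 4, 606 to 1319 in tree 14 and 1528 to 2140 in tree 13, so that branch 4.1 lay within the range of tree 14. PtStettler14.08G143600, PtStettler14.08G143500 and PtStettler14.08G143300 lie on the same strand within 21667 bases of it and are also falling genes. After subtraction of the tree means, the branch deviations of these 4 genes correlated pairwise at r = 0.955 to 0.995 over 15 branches, which all share their libraries. Whether reads were divided among these genes was not tested, so their separate levels are uncertain. PtStettler14.04G173400 and PtStettler14.04G173500 on chromosome 4, separated by 3802 bases, were the only other members within 100 kb of each other (r = 0.877), and both are falling genes. In all, 6 of the 100 genes had another within 100 kb, and the count was also 6 at 50 kb and at 200 kb. No matching count was made for other sets of 100 genes, so nothing is read from it.

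The intermediate mean of tree 14 hid an uneven crown. Each branch was placed on a linear scale between the mean of tree 13 (0%) and the mean of tree 4 (100%) of a gene. On such a scale an intermediate level sits nearer the lower tree, so positions are compared here between branches and not between rising and falling genes. In rising genes the median position was 17.9% in branch 14.1 and 21.9% in branch 14.2, against 41.6% in branch 14.3, 49.5% in branch 14.4 and 50.8% in branch 14.5. Branches 14.3, 14.4 and 14.5 all lay above 14.1 and 14.2 in 34 of 40 rising genes, where 23.8% of all tested genes did, a split chosen after seeing the values. In falling genes the positions in tree 14 were 40.2% in branch 14.1, 49.7% in 14.2, 51.9% in 14.3, 64.1% in 14.4 and 59.2% in 14.5. In these the same 3 branches all lay below the other 2 in 28 of 60 genes, against 22.9% of all tested genes. Branch 14.1 was the lowest of its tree in 32 of 40 rising genes (26.1% of all tested genes) and the highest in 39 of 60 falling genes (25.5%), and so stood nearest tree 13 in these.

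Tree 4 was uneven on the same scale. In rising genes its branches had median positions of 80.4% (4.1), 113% (4.2), 109% (4.3), 84.4% (4.4) and 111% (4.5), and in falling genes 91.5% (4.1), 101% (4.2), 103% (4.3), 101% (4.4) and 105% (4.5). Branches 4.2, 4.3 and 4.5 all lay above 4.1 and 4.4 in 27 of 40 rising genes (26.6% of all tested genes) and all below them in 27 of 60 falling genes (25.8%), again a split chosen after seeing the values. Branch 4.1 was the highest of its tree in 53 of 60 falling genes (24.5% of all tested genes) and the lowest in 19 of 40 rising genes (25.4%). In tree 13 the median positions were -3.93% in branch 13.1 to 3.13% in branch 13.3 for rising genes, and -9.20% in branch 13.2 to 10.6% in branch 13.5 for falling genes. The other 4 branches of tree 13 all lay above 13.1 in 19 of 40 rising genes, against 29.1% of all tested genes. In falling genes they all lay below it in 22 of 60, against 29.4% of all tested genes, and all above it in 14 of 60.

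**Figure D3:**
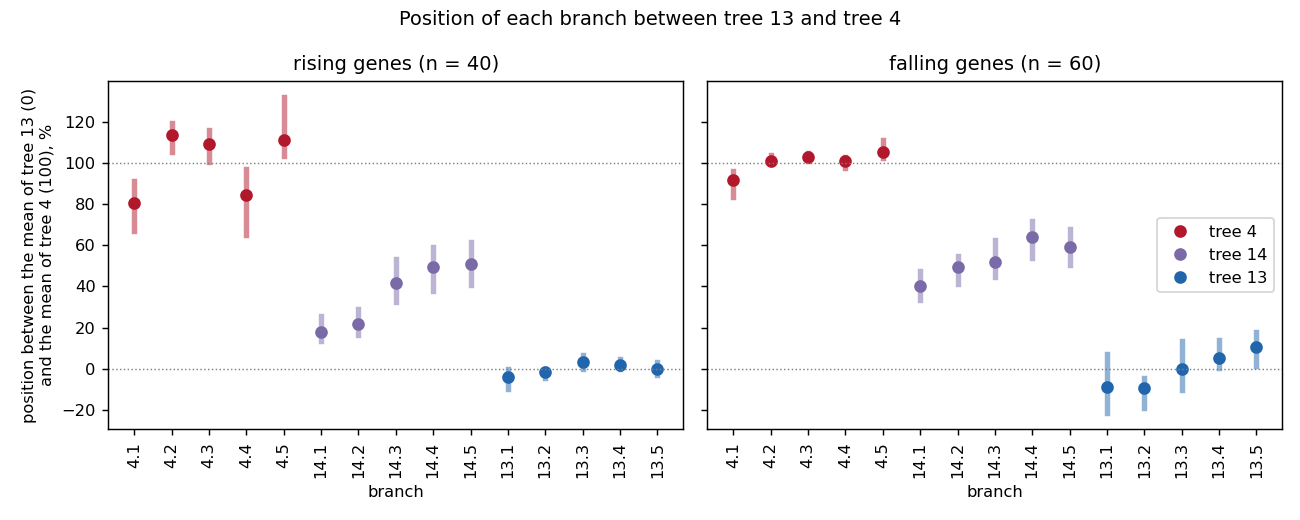
Position of each branch between the mean of tree 13 (0%) and the mean of tree 4 (100%), for 40 rising genes (left) and 60 falling genes (right), branches of trees 4, 14 and 13 from left to right. Points are medians over genes and bars run between the quartiles. In rising genes, branches 14.1 and 14.2 sit at 17.9% and 21.9% and the other branches of tree 14 at 41.6 to 50.8%.

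Differences between branches of a tree were not used to choose the genes and could be tested. A gene was called when limma's moderated F test over the 5 branches gave an adjusted p of at most 0.01, adjusted over all 23816 tested genes with the Benjamini-Hochberg method, and some pair of branches differed by at least 1 on the log2(scaled TPM + 1) scale. All 100 graded genes passed the filter on low values. Each adjusted p below belongs to the F over all 5 branches of a tree. No separate test was run on the highest and lowest branch given beside it. Each log2 difference below is between branch means of log2(scaled TPM + 1), and is not the log2 ratio of the averages given with it. Between branches of tree 4, 27 of the 100 genes were called (9 rising, 18 falling), where 2.46% of all tested genes were. Between branches of tree 14, 18 were called (11 rising, 7 falling) against 0.844%, and between branches of tree 13, 10 (9 rising, 1 falling) against 1.7%. Altogether 36 genes were called in at least 1 tree (3.86% of all tested genes) and 16 in at least 2 trees (0.89%). The graded genes were also more abundant, with a median level of 22.7 TPM against 8.10 TPM over all tested genes, and genes that vary widely between branches have less fixed tree means, so these shares are a description of the chosen genes. Single branches carried many of the calls. Without branch 4.1 the count in tree 4 was 10 (1.39% of all tested genes) and without branch 4.5 it was 18 (1.29%). Without branch 14.1 the count in tree 14 was 8 (0.453%), without replicate 3 of branch 14.1 alone it was 17 (0.852%), and without branch 13.1 that in tree 13 was 4 (0.298%).

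**Figure D4:**
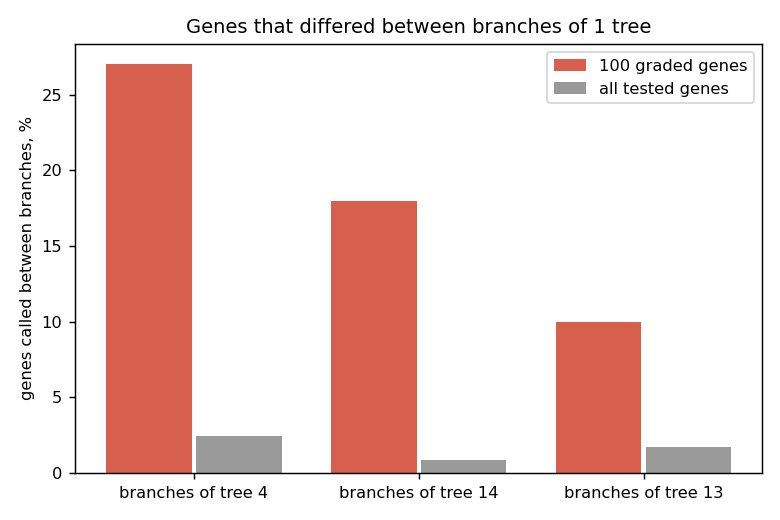
Share of genes called between branches of the same tree by limma's moderated F test, for the 100 graded genes (left bar) and all 23816 tested genes (right bar), trees 4, 14 and 13 from left to right. The graded genes reach 27, 18 and 10%, against 2.46, 0.844 and 1.7%.

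In tree 4, called rising genes were highest and called falling genes mostly lowest in branch 4.5. Of the 9 called rising genes, 4.5 was the highest branch in 9 and 4.4 the lowest in 6. Of the 18 called falling genes, 4.1 was the highest branch in 17 and 4.5 the lowest in 16. The highest and lowest branches of all other called genes were not counted, in this tree or the others. Over all tested genes, calls in tree 4 fell from 585 to 330 without branch 4.1 and to 307 without branch 4.5. This layout therefore cannot be called particular to the graded genes. PtStettler14.14G101600 (chromosome 14, 8174027 to 8174810, plus strand), a rising gene, averaged 157 ± 32.6 in branch 4.5 and 26.2 ± 9.43 in branch 4.1 (SD, n = 3 libraries each), a log2 difference of 2.57 (limma's moderated F, adjusted p = 6.44e-13). PtStettler14.14G121800 (chromosome 14, 9751136 to 9756844, plus strand), also rising, averaged 225 ± 31.1 in branch 4.5 and 85.0 ± 2.43 in branch 4.4, a log2 difference of 1.39 (limma, adjusted p = 4.82e-12). Among falling genes, PtStettler14.08G143600 of the chromosome 8 group averaged 940 ± 134 in branch 4.1 and 255 ± 36.0 in branch 4.5, and PtStettler14.08G089200 averaged 8.31 ± 0.256 in branch 4.1 and 2.96 ± 0.0858 in branch 4.5. In all 4 genes of the chromosome 8 group the difference between branches of tree 4 was called.

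In tree 14, branch 14.1 was the lowest in 9 of 11 called rising genes and the highest in 6 of 7 called falling genes. Over all tested genes, calls in tree 14 fell from 201 to 108 without branch 14.1, so this cannot be called particular to the graded genes either. PtStettler14.08G123100 averaged 6.92 ± 0.326 in branch 14.5 and 1.92 ± 0.0541 in branch 14.1 (SD, n = 3 libraries each), a log2 difference of 1.44 (limma, adjusted p = 1.26e-17). PtStettler14.15G121100 averaged 54.8 ± 3.13 in branch 14.4 and 15.4 ± 2.501 in branch 14.1, a log2 difference of 1.77 (limma, adjusted p = 2.16e-15). Both differences were far wider than the spread between libraries. In contrast, PtStettler14.02G052200 was highest in branch 14.1, with 225 ± 34.7, and lowest in branch 14.2, with 103 ± 14.7. The call for PtStettler14.13G005700 (limma, adjusted p = 0.000514) rested on branch 14.3, whose mean was 6.14 ± 3.07.

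In tree 13, branch 13.1 was the lowest in 7 of 9 called rising genes. Calls over all tested genes in tree 13 fell from 406 to 71 without branch 13.1, so the same limit holds here. PtStettler14.14G101600 averaged 15.7 ± 1.61 in branch 13.4 and 1.83 ± 0.282 in branch 13.1 (SD, n = 3 libraries each), a log2 difference of 2.56 (limma, adjusted p = 8.23e-13). PtStettler14.02G052200 averaged 76.8 ± 3.62 in branch 13.4 and 24.3 ± 2.79 in branch 13.2, a log2 difference of 1.63 (limma, adjusted p = 9.69e-11). PtStettler14.14G101600, PtStettler14.02G052200 and PtStettler14.14G137000 were the 3 graded genes called in all 3 trees, and each is a rising gene. How many of all tested genes were called in all 3 trees was not counted. The branches of the first of these, 26.2 to 157 in tree 4, overlapped its branches of tree 14, 19.7 to 81.7. The only falling gene called in tree 13 was PtStettler14.14G045600, named after its values were seen, with 24.3 ± 7.17 in branch 13.5 and 11.2 ± 1.61 in branch 13.1. Its call in limma was lost without replicate 3 of branch 13.1, without replicate 3 of branch 13.5, without replicate 1 or replicate 3 of every branch, or with TPM as deposited.

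Rising and falling genes also lay on opposite sides of the main variation among branches. The leading principal component of all tested genes, after each tree's mean was subtracted, held 42.4% of the variance between branches, with branches 4.5, 14.4 and 13.3 at the positive end of their trees and 4.1, 14.1 and 13.1 at the negative end. Over the 15 branches, rising genes had a median r of 0.70 with this component, and 20 of 40 reached 0.7 (15.8% of all tested genes) with none at -0.7 or below. Falling genes had a median r of -0.60, and 26 of 60 were at -0.7 or below (17.4% of all tested genes) with none at 0.7 or above. The sign was positive in 38 of 40 rising and 9 of 60 falling genes, against 51.2% of all tested genes. PtStettler14.14G101600 (r = 0.97) and PtStettler14.08G089200 (r = -0.96) followed it most closely among the genes named above, while PtStettler14.01G079600 (r = 0.30) did not share the sign of most falling genes. Branches share libraries between genes, so these correlations are descriptions. Mean depth of the branches at the negative end was 26.02 M in 4.1, 19.3 M in 14.1 and 22.5 M in 13.1, against 32.9 M in 4.5, 23.0 M in 14.4 and 21.5 M in 13.3, and the part of depth was not tested. Replicate 2 of branch 4.1 was recovered at 18.0 M but had 29167 genes above 0, near the 29220 of replicate 1 at 32.7 M. Its depth, and so the mean of branch 4.1, is therefore uncertain.

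**Figure D5:**
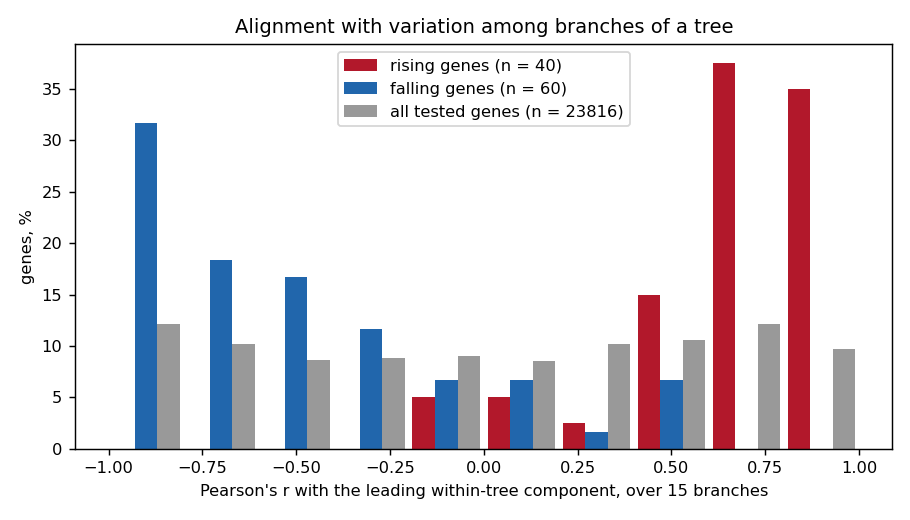
Distribution of Pearson's r between the branch means of a gene and the leading within-tree component over 15 branches, in bins of 0.2, as percent of the 40 rising genes, the 60 falling genes and all 23816 tested genes. Rising genes gather at positive r (median 0.70) and falling genes at negative r (median -0.60), while all tested genes spread evenly.

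The spread between branches had a different place in each group. The SD of log2 branch means was largest in tree 14 in 21 of 40 rising genes (52.5%, against 28.5% of all tested genes) and in 12 of 60 falling genes. It was largest in tree 4 in 38 of 60 falling genes (63.3%, against 40.6% of all tested genes). The median SD of rising genes reached 0.20 in tree 4, 0.34 in tree 14 and 0.28 in tree 13, and that of falling genes reached 0.28 in tree 4, 0.20 in tree 14 and 0.17 in tree 13. Leaving out branch 4.1 moved the number of all 100 genes with the largest SD in tree 14 to 50, against 33 with it. The graded genes were shorter than others, with a median span of 1865.5 bases against 3478 bases. They lay on 19 chromosomes, with most on chromosome 8 (12 genes, where 6.02% of tested genes lie) and chromosome 4 (10 genes, 5.78%). These counts include the group of neighbouring genes on chromosome 8 and the neighbouring pair on chromosome 4, which are not independent places.

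The levels of 2 rising genes switched between libraries rather than being graded. Apart from these, the SD between libraries of a branch was at most 0.33 on the log2 scale, whereas it was 2.76 for PtStettler14.07G017300 (chromosome 7, 1415191 to 1421044, minus strand) and 3.95 for PtStettler14.07G059900, which is named after its values were seen. PtStettler14.07G017300 was at 81.8 to 118 in 14 of 15 libraries of tree 4, at 69.4 to 97.6 in 12 of 15 of tree 14 and at 79.9 to 108 in 9 of 15 of tree 13, and at 0.270 or less in all others. Its tree means thus differed by how many libraries held a value. A second gene on the same strand, PtStettler14.07G017200 (1414415 to 1421127), spans all of it. This neighbour was at 7.51 to 14.2 in the 35 libraries where PtStettler14.07G017300 was high and at 71.8 to 91.9 in the 10 where it was low. The sum of both genes averaged 105 ± 11.3 in tree 4, 90.8 ± 10.8 in tree 14 and 96.8 ± 14.2 in tree 13 (SD, n = 15 libraries each), and it was not graded over the trees. The step of PtStettler14.07G017300 changed sign, to -0.26, when the median library of each branch was used, to -0.24 without replicate 3, and to -1.16 in libraries of 16 to 26 M fragments, a subset chosen after seeing the data. PtStettler14.07G059900, which belongs to the co-varying set, was at 61.4 to 881 in 10 libraries of tree 4, at 95.4 to 2208 in 5 of tree 14 and at 101 to 435 in 4 of tree 13, and was listed at 0 in all others. Its mean in tree 4 was 0.737 times that in tree 14, so on the linear scale it was not rising. Of the other graded genes, 10 overlapped another gene in the annotation, and their read division was not examined.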

How the data were processed

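Leaf mRNA-seq libraries (45, from 15 branches) were analysed from the TPM and FPKM values that the authors deposited per gene. Per the labels and methods, reads were trimmed with Trimmomatic 0.36, aligned to the Stettler genome with HISAT2 2.1.0 and quantified with StringTie 1.3.4d on reference transcripts only. FPKM served only to recover depth. The selection rule was applied to TPM as deposited, averaging log2(TPM + 1) over libraries and then branches. All other values used TPM divided by median-of-ratios factors (0.502 to 1.28) from 25014 genes above 0 in all libraries. Genes with at least 1 scaled TPM in at least 3 libraries (23816) were fitted in limma 3.58.1 (R 4.3.3) with 1 coefficient per branch and a mean-variance trend, so a difference on the log2(value + 1) scale understates changes of low genes. TPM are not counts, so no count model was run. The fit was tested on simulated data. Tables were handled with Python 3.11.15, pandas 2.3.3 and numpy 2.4.6. Named genes were the 10 rising and 10 falling genes with the largest smaller step, the 2 genes with the smallest p among those called in each tree, and genes near or overlapping another gene. The members and lists were chosen with earlier results of these data known. Alternatives covered scaling, pseudocount, filters, thresholds, replicate block and left-out branches and libraries. Coordinates are those of the Stettler genome in the files, whose exons were not used here.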

Additional observations from a re-analysis of the deposited data

How the results depend on the processing

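Of the counts recomputed under alternatives, 220 stayed within 1.5 times the reported count and 9 did not. The number of rising genes meeting the rule was 503 with a pseudocount of 0.1, against 240. The number of falling genes was 916, against 446, in libraries of 16 to 26 megafragments (M), a subset chosen after seeing the data that holds 3 libraries of tree 4, of which replicate 1 of branch 4.2 and replicate 2 of branch 4.3 gave 32.5% and 40.8% of TPM to the co-varying set. The recovered depth of the other, replicate 2 of branch 4.1, is uncertain. With no minimum difference, 63, 59 and 42 of the 100 genes were called between branches of trees 4, 14 and 13. At that setting 21.2, 12.2 and 12.8% of all tested genes were called. Leaving out a branch gave 10 to 27 calls in tree 4, 8 to 16 in tree 14 and 4 to 10 in tree 13, the lowest without branches 4.1, 14.1 and 13.1. The shares called over all tested genes were then 1.29 to 2.4%, 0.453 to 0.802% and 0.298 to 1.72%. Leaving out a branch gave 27 to 50 genes with the largest SD in tree 14, the highest without branch 4.1. Leaving out a branch left 197 to 283 rising and 382 to 541 falling genes meeting the rule, and 36 to 44 rising and 56 to 64 falling members. Leaving out a replicate number gave 233 to 278, 414 to 505, 34 to 44 and 56 to 66 for these, and 27 to 30 calls in tree 4, 13 to 17 in tree 14 and 8 to 10 in tree 13. With a replicate number left out, 2.39 to 2.53%, 0.605 to 0.865% and 1.36 to 1.84% of all tested genes were called in trees 4, 14 and 13. Leaving out single libraries gave 27 to 32, 16 to 20 and 8 to 10 calls in trees 4, 14 and 13. Over all tested genes the shares were 2.32 to 2.67%, 0.731 to 0.899% and 1.6 to 1.89%. Without replicate 3 of branch 14.1, also chosen after seeing the data, 261 rising and 433 falling genes met the rule, with 49 rising and 51 falling members. The smaller step of PtStettler14.07G017300 was reversed at -0.26 with the median library, -0.24 without replicate 3 (-0.24 to 1.63 when each replicate number was left out) and -1.16 in libraries of 16 to 26 M fragments, where its overlapping neighbour held the level in the low libraries. The cause of the other shifts was not tested.

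Same-numbered libraries of different branches did not deviate together as a set (median r = 0.012 over 315 pairs, range -0.553 to 0.621). Libraries of different number had a range of -0.713 to 0.66 over 630 pairs. Numbers were therefore not treated as pairs in the main fit. A batch shared by some of the libraries was not tested. With a replicate block, 27, 18 and 10 genes were called in trees 4, 14 and 13, as without it. The effect of depth on genes below 1 TPM was not tested, and 1 TPM in a 1-kb transcript was about 18.2 fragments.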
